A study of Mus musculus with 12 samples.

Results

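The netrins, the netrin-Gs and their receptors were followed through 12 libraries of newborn mouse thalamus. The members were the 10 genes Ntn1, Ntn4, Ntng1, Ntng2, Dcc, Neo1, Unc5a, Unc5b, Unc5c and Unc5d. They were taken as the rows of the count files whose Ensembl identifier carries one of these symbols, and each symbol matched a single row. They are 10 of the 55359 genes in the files. Of these, 9 passed the filter on low counts, which left 17501 genes to test, and Ntng2 did not.

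Netrins are laminin-related guidance proteins. Secreted netrins such as netrin-1 attract axons through the receptor Dcc and its relative neogenin (Neo1), and they repel axons through receptors of the Unc5 group, alone or together with Dcc. The netrin-Gs are held on the axon membrane by a lipid anchor, do not use Dcc or Unc5, and bind netrin-G ligands on the partner cell. In the forming thalamocortical system, netrin-1 acts on thalamic axons as they cross the ventral telencephalon, and netrin-G1 is known as a protein of thalamic axons.

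The tissue was the ventroposterior medial nucleus of the thalamus at postnatal day 0, the relay for touch from the face. Per the series design, input from the whisker pad reaches the territory called PMBSF, and input from the upper lip reaches the one called ALBSF. There were 4 libraries of Ctrl ALBSF and 4 of Ctrl PMBSF from control pups, and 4 of embWPC ALBSF from pups of the treatment that the labels call embWPC, a name they do not spell out. The groups share age and dissection, no genotype or strain is named in the labels, and the embWPC treatment was analysed here in ALBSF only. Each library was a pool of tissue from 5 brains, so the spread between libraries is a spread between pools and not between single pups.

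Library totals ran from 28457046 to 34512840 counts. Levels are given as CPM, the count scaled to a common library total after adjustment by edgeR's TMM factors. Slc17a6, the glutamate transporter gene of relay neurons, stood at 336 to 430 CPM. Tcf7l2, a thalamic transcription factor gene, stood at 587 to 1289 CPM. Of 10 relay neuron markers, Tcf7l2 and Foxp2 were called lower in Ctrl PMBSF than in Ctrl ALBSF by edgeR (adjusted p = 0.0301 and 0.00665), and Rora was called higher (adjusted p = 0.0436). Tcf7l2 had a mean of 681 CPM in Ctrl PMBSF and 1154 CPM in Ctrl ALBSF, Foxp2 102 and 189 CPM, and Rora 651 and 498 CPM. The part of these differences in the values below was not tested. Gad2, which marks the GABAergic neurons of neighbouring nuclei, stood at 0.959 to 8.37 CPM. The summed level of 10 meningeal fibroblast markers was 20.6 to 22.3 CPM in Ctrl ALBSF, 17.6 to 103.8 CPM in Ctrl PMBSF and 13.1 to 16.4 CPM in embWPC ALBSF. All 10 of these markers were above 0 on the log2 scale in Ctrl PMBSF against Ctrl ALBSF, and 7 of them had an unadjusted p under 0.05. None passed the edgeR test after adjustment, while 4 were called higher when same-numbered control libraries were fitted as pairs (Aldh1a2, Ogn, Lum and Islr, adjusted p = 0.00613 to 0.0478). Single markers are named here after their values were seen. In bulk tissue, fewer cells of a type and less RNA per cell cannot be told apart.

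Netrin-G1 was by far the most abundant member. Levels of different genes are compared here per length, as CPM divided by the kilobases of annotated exon. On that scale Ntng1 had a mean of 34.5 CPM per kb over the 12 libraries, with a range of 31.1 to 40.5. It stood 11.4-fold above the next member and above 94.3% of the genes tested, and it made up 73.5 to 78.3% of the summed level per kb of the 10 members in each library. Below it came Unc5a at 3.02, Ntn4 at 2.93 and Neo1 at 2.46 CPM per kb, whose ranges overlapped: Unc5a was above Ntn4 in 7 of 12 libraries, and Ntn4 above Neo1 in 9. Unc5c followed at 1.27 CPM per kb, with every library below every library of Neo1. This order depends on the exon lengths: in CPM, Unc5c and Neo1 were above Unc5a in every library. Unc5b, at 0.546 CPM per kb, lay below Unc5c without overlap. Dcc (0.389), Ntn1 (0.223), Unc5d (0.0776) and Ntng2 (0.0165) followed, each with a range that overlapped that of the gene above it. Within single libraries, Dcc was above Ntn1 and Unc5d above Ntng2 in 12 of 12. Ntn1 was above Unc5d in 11 of 12, and Unc5b above Dcc in 9 of 12.

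**Figure D1:**
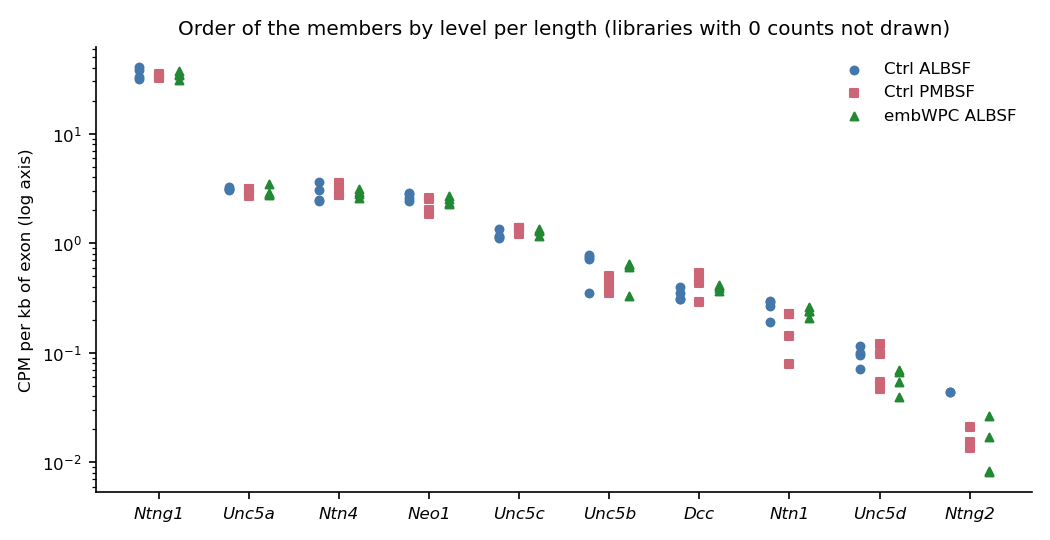
CPM per kb of exon (log axis) for each of the 10 members in each library, in the order of their mean over 12 libraries; blue circles are Ctrl ALBSF, red squares Ctrl PMBSF and green triangles embWPC ALBSF, and libraries with 0 counts are not drawn. Ntng1, at 31.1 to 40.5 CPM per kb, stands apart from the 9 others, and the levels fall to 0 to 0.0443 CPM per kb for Ntng2.

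For the 7 members in the promoter table, which is taken from RefSeq (build GRCm38.p6), the 250 bases before the start listed there were read. Ntn1, Dcc and Unc5d were not among them. Each window was placed on GRCm39 by an exact match, and CG dinucleotides were counted in it, the feature of promoters within CpG islands. All 7 listed starts lay inside the gene as GENCODE annotates it, and the Unc5b window alone reached beyond the gene. The windows of Ntng1, Neo1, Unc5a and Unc5c lay wholly in annotated exons, 250 of 250 bases, and those of Ntng2, Ntn4 and Unc5b held 189, 106 and 36 exonic bases, so the counts are not of upstream DNA alone. The windows of Neo1, Unc5b, Ntn4, Ntng1, Unc5a and Unc5c held 45, 27, 26, 25, 25 and 23 CG dinucleotides, against a median of 6 over the 32851 promoters of the table. The window of Ntng2 held 4, more than 37.8% of all promoters. That window lies at chr2:29138112-29138361, while the gene, on the minus strand, begins at 29143017, so its count is not of the first annotated start. The motif GGGCGG, searched on both strands, was found in the windows of Ntn4, Ntng1, Neo1, Unc5a and Unc5b and in 32.7% of all promoters. CCAAT was found in those of Ntng2 and Neo1 and in 33.8% of all, and TATAAA in 0 of the 7 and in 12.4% of all.

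The parts of 3 windows that lie outside annotated exons are printed. They are the bases at chr10:60667397-60667610 on the minus strand for Unc5b, chr10:93476661-93476804 on the plus strand for Ntn4 and chr2:29138301-29138361 on the minus strand for Ntng2 (GRCm39). The Unc5b stretch lies outside the annotated gene and those of Ntn4 and Ntng2 inside it, so they are not like parts of a promoter. Each is written 5′ to 3′ along the gene, with CG dinucleotides in capitals.
Unc5b: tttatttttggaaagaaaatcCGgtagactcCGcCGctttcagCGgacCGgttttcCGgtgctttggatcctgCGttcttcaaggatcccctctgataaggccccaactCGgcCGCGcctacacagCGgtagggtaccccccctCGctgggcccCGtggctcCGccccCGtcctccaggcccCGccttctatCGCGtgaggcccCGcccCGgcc
Ntn4: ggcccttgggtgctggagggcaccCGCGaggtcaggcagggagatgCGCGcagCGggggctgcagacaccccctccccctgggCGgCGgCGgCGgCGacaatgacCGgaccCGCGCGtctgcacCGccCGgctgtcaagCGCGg
Ntng2: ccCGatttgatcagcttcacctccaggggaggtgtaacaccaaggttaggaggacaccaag
The Unc5b stretch holds 20 CG dinucleotides in 214 bases, the Ntn4 stretch 18 in 144 bases and the Ntng2 stretch 1 in 61 bases. The files hold no measurement of these promoters beyond the level of the gene, so the counts are a description of the sequence.

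None of the 9 tested members passed the test in any of the 3 comparisons. Differences came from edgeR's quasi-likelihood fit. A member counts as called when its p, adjusted by Benjamini-Hochberg with all 17501 genes, is under 0.05. Between Ctrl PMBSF and Ctrl ALBSF, 0 of 9 members were called, where 1.62% of all genes were. Ntn1, Neo1 and Unc5b, all lower in PMBSF, had an unadjusted p under 0.05, as did 11.8% of all genes in either direction and 5.71% in that direction. Between embWPC ALBSF and Ctrl ALBSF, 0 of 9 were called, where 0.0629% of all genes were, and Unc5d alone had an unadjusted p under 0.05, as did 9.22% of all genes (5.07% on the lower side). Between embWPC ALBSF and Ctrl PMBSF, 0 of 9 were called, where 0.00571% of all genes were, and 0 of 9 had an unadjusted p under 0.05, as did 9.47% of all genes. DESeq2 and limma voom also called 0 members in each comparison. The comparisons share libraries: Ctrl ALBSF enters both that include it, and so do Ctrl PMBSF and embWPC ALBSF.

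**Figure D2:**
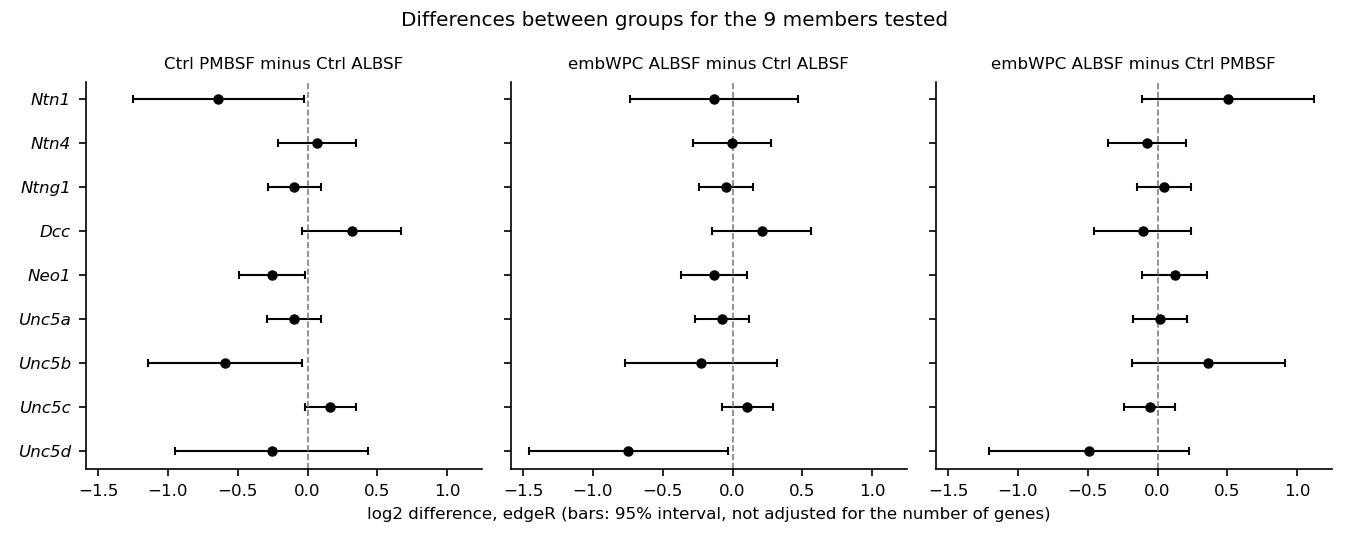
Log2 difference of each tested member in the 3 comparisons (points, edgeR) with its 95% interval, which is not adjusted for the number of genes. Intervals are narrowest for Ntng1, Unc5a and Unc5c and widest for Ntn1, Unc5b and Unc5d, and the points in the first panel run from -0.64 for Ntn1 to 0.31 for Dcc.

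Among the secreted ligands, Ntn1 (ENSMUSG00000020902, chr11:68100190-68291662 on GRCm39), which encodes netrin-1, was near the lower end of what these libraries resolve. In Ctrl ALBSF libraries 1 to 4 it stood at 1.26, 1.76, 1.94 and 1.92 CPM. In Ctrl PMBSF it stood at 0.513, 1.47, 1.48 and 0.942 CPM, and in embWPC ALBSF at 1.38, 1.71, 1.59 and 1.57 CPM. PMBSF libraries 1 and 4 were the lowest of the 12, while PMBSF libraries 2 and 3 lay inside the range of the ALBSF groups. The fitted difference between PMBSF and ALBSF controls was -0.64 ± 0.287 on the log2 scale (SE), with an adjusted p of 0.39 and an interval from 0.419-fold to 0.982-fold. Without Ctrl PMBSF library 1 it was -0.41 (adjusted p = 0.608). Between embWPC ALBSF and Ctrl ALBSF the Ntn1 difference was -0.14 (adjusted p = 0.902), with an interval from 0.6-fold to 1.38-fold, and between embWPC ALBSF and Ctrl PMBSF it was 0.50 (adjusted p = 0.597).

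Ntn4 (ENSMUSG00000020019, chr10:93476543-93583069) encodes netrin-4, a secreted netrin that binds laminins of the basement membrane. It was the main secreted netrin of the members here, with Ntn1 at 0.0252 to 0.119 of its level per kb in any library. Ntn4 stood at 9.43 to 13.9 CPM in Ctrl ALBSF, 10.6 to 13.6 CPM in Ctrl PMBSF and 9.98 to 12.2 CPM in embWPC ALBSF, 3 ranges that overlap almost wholly. Its interval ran from 0.865-fold to 1.27-fold for PMBSF against ALBSF controls and from 0.820-fold to 1.21-fold for embWPC ALBSF against Ctrl ALBSF. The other secreted netrins of the annotation, which are no members, were Ntn3 at a mean of 6.44 to 8.29 CPM in the 3 groups and Ntn5, which did not pass the count filter. Ntn3 was not put on the scale per kb. It was higher in embWPC ALBSF than in Ctrl PMBSF by 0.36 on the log2 scale (edgeR adjusted p = 0.394). Those 2 groups did not overlap, as for 4.73% of all genes. Between PMBSF and ALBSF controls the Ntn3 difference was -0.27 (edgeR adjusted p = 0.388). A noncoding gene on the opposite strand, Gm15915, covers 2.38% of the Ntn4 exons, and strand was not stated for the counts.

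**Figure D3:**
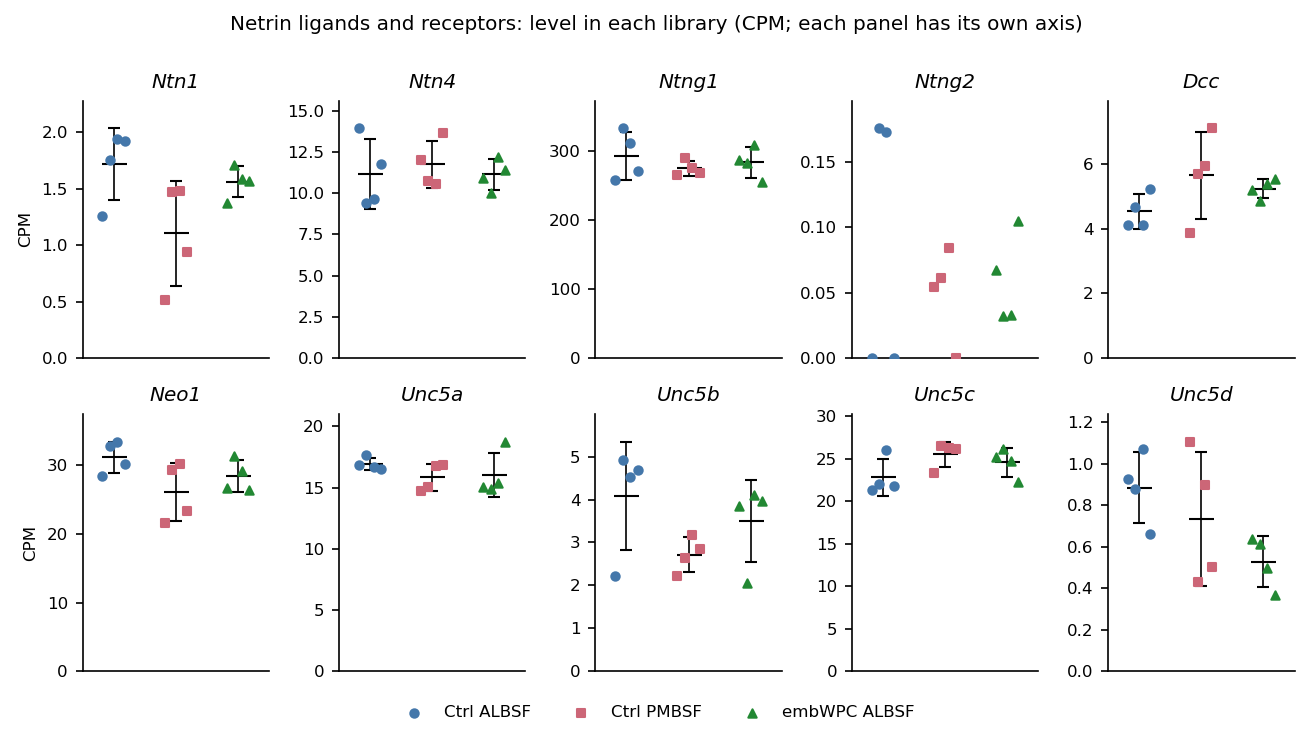
CPM of the 10 members in each library by group; points are libraries, the horizontal line is the mean and the bar the SD over 4 libraries (not drawn for Ntng2, which has libraries at 0), and each panel has its own axis from 0. Groups overlap in all panels except Unc5d, where the embWPC ALBSF libraries (0.367 to 0.637 CPM) lie below the Ctrl ALBSF libraries (0.661 to 1.07 CPM).

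The netrin-Gs differed from each other far more than either did between groups. Ntng1 (ENSMUSG00000059857, chr3:109687356-110051327), which encodes netrin-G1, had a mean of 292.6 ± 34.8 CPM in Ctrl ALBSF (SD, n = 4), 274.2 ± 10.8 CPM in Ctrl PMBSF and 283 ± 22 CPM in embWPC ALBSF. The 3 ranges overlapped, with the lowest library at 255 CPM and the highest at 332 CPM. With Unc5a and Unc5c it had the narrowest intervals of the members. The interval ran from 0.820-fold to 1.07-fold for PMBSF against ALBSF controls, from 0.846-fold to 1.10-fold for embWPC ALBSF against Ctrl ALBSF, and from 0.903-fold to 1.18-fold for embWPC ALBSF against Ctrl PMBSF. The adjusted p-values were 0.761, 0.888 and 0.906. Ntng2 (ENSMUSG00000035513, chr2:29084553-29143017), which encodes netrin-G2, had 0 to 5 counts per library and 25 counts in all, with 3 libraries at 0. Its level of 0 to 0.176 CPM spans the limit that a count of 0 allows, which is 3 counts or 0.0786 to 0.105 CPM in these libraries, and covers counting error only. A noncoding gene on the same strand shares 14.1% of the Ntng2 exons, so its few counts are also uncertain in origin.

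Of Dcc and its relative neogenin, neogenin had the higher level per kb, and their differences between the control territories were of opposite sign, neither passing the test. Dcc (ENSMUSG00000060534, chr18:71386705-72484179), the attractive netrin receptor, stood at 4.10, 4.68, 4.12 and 5.22 CPM in Ctrl ALBSF libraries 1 to 4. In Ctrl PMBSF it stood at 3.86, 5.68, 5.93 and 7.10 CPM, and in embWPC ALBSF at 5.20, 4.85, 5.36 and 5.53 CPM. PMBSF library 1 was the lowest of all and the other 3 PMBSF libraries were the highest of all. The Dcc difference between PMBSF and ALBSF controls was 0.31 ± 0.164 (SE, log2), with an adjusted p of 0.49 and an interval from 0.975-fold to 1.59-fold. For embWPC ALBSF against Ctrl ALBSF it was 0.21 (adjusted p = 0.728, interval 0.905-fold to 1.48-fold).

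Neo1 (ENSMUSG00000032340, chr9:58781965-58944238) encodes neogenin, which binds netrins and also the repulsive guidance molecules. It stood at 28.4, 32.7, 33.3 and 30.1 CPM in Ctrl ALBSF libraries 1 to 4. In Ctrl PMBSF it stood at 21.6, 29.3, 30.1 and 23.4 CPM, and in embWPC ALBSF at 26.7, 31.4, 29.1 and 26.4 CPM. The same PMBSF libraries, 1 and 4, were lowest as for Ntn1, and the groups overlapped. The Neo1 difference between PMBSF and ALBSF controls was -0.25 ± 0.109 (SE, log2), with an adjusted p of 0.357 and an interval from 0.713-fold to 0.985-fold, and for embWPC ALBSF against Ctrl ALBSF it was -0.13 (adjusted p = 0.737). As a ratio of levels per kb, Dcc stood at 0.108 to 0.152 of Neo1 in Ctrl ALBSF, 0.157 to 0.266 in Ctrl PMBSF and 0.135 to 0.184 in embWPC ALBSF. The control ranges do not overlap, but this ratio was formed after the values were seen and was not tested. It was among several ratios and shares formed within the family, and it was not the only one whose ranges separated groups.

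The Unc5 receptors, which mediate repulsion from netrin-1 and can bind Flrt proteins, were led by Unc5a on the scale per length. This rests on the annotated exon lengths over all transcripts, 5390 bases for Unc5a and 19135 for Unc5c. In CPM, Unc5c was above Unc5a in every library. Unc5a made up 58.3 to 66.5% of the summed level per kb of the group, Unc5c 21.8 to 30.2%, Unc5b 7.26 to 14.8% and Unc5d 0.749 to 2.72%. By group, the Unc5c share was 21.8 to 25.7% in Ctrl ALBSF, 27.0 to 29.8% in Ctrl PMBSF and 21.9 to 30.2% in embWPC ALBSF. The control ranges of this share do not overlap, and it was not tested. Unc5a (ENSMUSG00000025876, chr13:55096518-55153833) had a mean of 16.9 ± 0.482 CPM in Ctrl ALBSF (SD, n = 4), 15.8 ± 1.13 CPM in Ctrl PMBSF and 16 ± 1.83 CPM in embWPC ALBSF. Its intervals in the 3 comparisons lay between 0.818-fold and 1.16-fold. Unc5c (ENSMUSG00000059921, chr3:141170977-141540685) stood at 21.4, 22.1, 26.1 and 21.9 CPM in Ctrl ALBSF libraries 1 to 4. In Ctrl PMBSF it stood at 23.4, 26.5, 26.3 and 26.1 CPM, and in embWPC ALBSF at 22.2 to 26.1 CPM. ALBSF library 3 lay with the PMBSF libraries, and the difference between PMBSF and ALBSF controls was 0.16 ± 0.0852 (SE, log2), with an adjusted p of 0.496.

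Unc5b (ENSMUSG00000020099, chr10:60598372-60667396), which is also known as a receptor of blood vessel cells, varied more within the ALBSF groups than any other member above 2 CPM. It stood at 2.22, 4.92, 4.53 and 4.70 CPM in Ctrl ALBSF libraries 1 to 4, at 2.21, 2.64, 3.16 and 2.86 CPM in Ctrl PMBSF, and at 3.86, 2.07, 4.10 and 3.96 CPM in embWPC ALBSF. All 4 PMBSF libraries were below 3 of the 4 ALBSF controls, and ALBSF library 1 lay at the level of the lowest PMBSF library. The difference between PMBSF and ALBSF controls was -0.59 ± 0.256 (SE, log2), with an adjusted p of 0.369 and an interval from 0.455-fold to 0.972-fold. Without Ctrl ALBSF library 1 it was -0.80, with an adjusted p of 0.099. The summed level of 10 endothelial and mural markers, none of them at 0 in any library, was 138 to 174 CPM in Ctrl ALBSF, 120.0 to 183 CPM in Ctrl PMBSF and 143 to 164 CPM in embWPC ALBSF. Of these markers, 8 of 10 were below 0 on the log2 scale in PMBSF against ALBSF controls and 0 were called. With the control pairs as a block 1 was called lower, the pericyte gene Rgs5 (adjusted p = 0.00593), and their part in the Unc5b values was not tested.

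Unc5d (ENSMUSG00000063626, chr8:29136745-29709664), a receptor that also binds Flrt2, was the least abundant member that could be tested. It stood at 0.926, 0.879, 1.07 and 0.661 CPM in Ctrl ALBSF libraries 1 to 4, at 1.11, 0.43, 0.896 and 0.502 CPM in Ctrl PMBSF, and at 0.637, 0.614, 0.496 and 0.367 CPM in embWPC ALBSF. The embWPC ALBSF libraries were all below the Ctrl ALBSF libraries. It was the only one of the 9 tested members whose groups did not overlap in this comparison, where 5.74% of all genes did not overlap, 2.70% with the embWPC libraries lower. The difference was -0.75 ± 0.335 (SE, log2), with an adjusted p of 0.528 and an interval from 0.362-fold to 0.979-fold. In the other 2 comparisons the groups of all 9 tested members overlapped, where 8.28% of all genes did not between the control territories and 4.73% did not between embWPC ALBSF and Ctrl PMBSF. For Unc5d the difference was -0.26 between PMBSF and ALBSF controls (adjusted p = 0.826) and -0.49 between embWPC ALBSF and Ctrl PMBSF (adjusted p = 0.664). Unc5d had 14 to 19 counts per embWPC library. In embWPC ALBSF against Ctrl ALBSF, 9188 of 17501 genes were below 0 on the log2 scale. So were 8 of 8 tested GABAergic, 10 of 10 meningeal and 10 of 10 microglia markers (medians -0.70, -0.78 and -0.48). Of 10 markers each, 9 astrocyte, 6 oligodendrocyte, 6 relay neuron and 5 endothelial markers were below 0. None of these was called, and their part in the Unc5d values was not tested.

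The control libraries carry replicate numbers, and same-numbered PMBSF and ALBSF libraries deviated together, so the members were also read pair by pair. Neo1 was lower in PMBSF in all 4 pairs, with differences of -0.40, -0.16, -0.14 and -0.36 on the log2 scale. Ntn1 was lower in all 4 pairs as well, at -1.29, -0.26, -0.39 and -1.03. Unc5b was at -0.90, -0.52 and -0.72 in pairs 2 to 4 and level in pair 1 (-0.00098). Unc5c was higher in all 4 pairs, by 0.0094 to 0.26, and Dcc was higher in 3 of 4. Among all genes tested, 12.7% were lower in all 4 pairs and 14.4% were higher in all 4.

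When the pairs entered the edgeR fit of the 8 control libraries as a block, 0 members were called, where 5.04% of all genes were. The blocked difference was -0.26 ± 0.0687 for Neo1 (SE, log2; adjusted p = 0.0508), -0.55 for Unc5b (adjusted p = 0.0977), -0.69 for Ntn1 (adjusted p = 0.137) and 0.16 for Unc5c (adjusted p = 0.223), all from edgeR. In a fit chosen after the data were seen, which kept the block and left out pair 1, Unc5b was called at -0.72 (adjusted p = 0.0225), where 5.71% of all genes were, and Neo1 was at -0.23 (adjusted p = 0.0806). The call for Unc5b thus rests on leaving out the pair in which both libraries stood near 2.2 CPM.

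**Figure D4:**
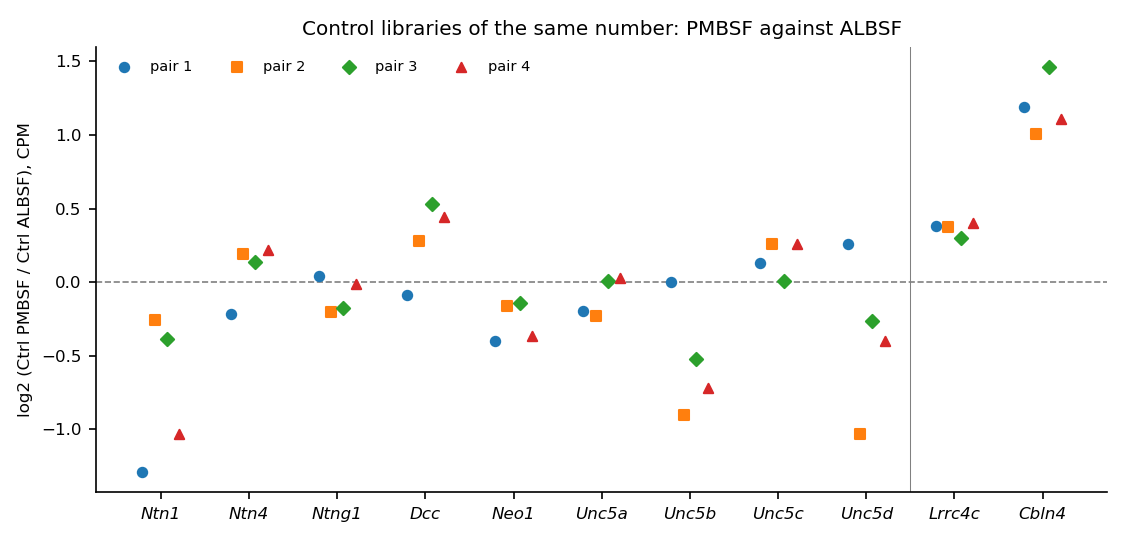
Log2 ratio of CPM in Ctrl PMBSF over Ctrl ALBSF for the 4 pairs of same-numbered libraries, for the 9 tested members and, to the right of the line, the netrin-G1 ligand gene Lrrc4c and the Dcc-binding cerebellin gene Cbln4. Neo1 and Ntn1 lie below 0 in all 4 pairs and Unc5c above 0 in all 4, with Unc5c within 0.26 of 0, while Lrrc4c (0.30 to 0.40) and Cbln4 (1.01 to 1.46) lie well above 0 throughout.

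Across the 12 libraries, Ntn1 and Neo1 varied together. All 36 pairs of the 9 tested members were compared on log2 CPM, with permutation p-values adjusted over the 36 pairs. The permutations shuffled all 12 libraries freely. They took no account of the 3 groups or of the paired control libraries, so these p-values are only approximate. For Ntn1 and Neo1, Pearson's r was 0.898 (permutation p = 0.00022, adjusted p = 0.00792) and Spearman's rho was 0.832 (permutation p = 0.00124, adjusted p = 0.0446). It was the only pair under 0.05 after adjustment. Within groups r was 0.878, and without the 2 libraries farthest from the median of Ntn1 it was 0.681. The next pair by p was Dcc and Unc5d, with r of -0.70 (permutation p = 0.0116, adjusted p = 0.194) and rho of -0.70 (permutation p = 0.0146, adjusted p = 0.131). Other genes followed Ntn1 and Neo1 more closely than they followed each other. Among the 10181 or 10182 genes compared, each at a mean of 5 CPM or more, the highest correlations with Neo1 were those of Ubr4 (0.937) and Scaf4 (0.934), with Ntn1 those of Otud4 (0.949), Adgrf5 (0.946) and Cnot6 (0.941), and with Unc5b those of Camk2g (0.912), Rims1 (0.900) and Hus1 (0.880). These are the highest of many correlations over the same 12 libraries and are given as a description.

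Some genes of the wider lists of partners and effectors were called. With 1.62% of all genes called between the control territories, 0 of 9 members called does not set the members apart from these lists. These lists were chosen with earlier results of these data known, so the shares called are a description only. Of 24 other ligands and binding partners, 22 passed the count filter, and all 38 intracellular effectors did. Between the control territories, 2 of these 60 genes were called higher in PMBSF, where 0.811% of all genes were, and 3 were called lower, where also 0.811% were. The 2 that rose were Lrrc4c and Cbln4, and the 3 that fell were Adgrl2, Adgrl1 and Elmo1. With the control pairs as a block, 8 of the 60 were called, where 5.04% of all genes were, the 3 more being Flrt2, Trim67 and Ablim3. The median log2 difference was -0.10 for the 22 partners, -0.088 for the 38 effectors and -0.096 for the 9 tested members, against 0.0043 for all genes.

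Lrrc4c (ENSMUSG00000050587, chr2:96148514-97462016) encodes netrin-G ligand 1, the membrane protein that netrin-G1 binds. It stood at 50.8, 45.3, 53.2 and 46.9 CPM in Ctrl ALBSF libraries 1 to 4, at 66.1, 58.8, 65.5 and 61.9 CPM in Ctrl PMBSF, and at 58.2, 66.8, 60.0 and 59.3 CPM in embWPC ALBSF. Both other groups lay wholly above Ctrl ALBSF, while its partner Ntng1 overlapped in all 3. In PMBSF against ALBSF controls Lrrc4c rose by 0.36 ± 0.0719 (SE, log2; adjusted p = 0.0189). In embWPC ALBSF against Ctrl ALBSF the difference was 0.32 ± 0.072, which did not pass in edgeR (adjusted p = 0.112) and passed in DESeq2 (adjusted p = 0.0149), and the same Ctrl ALBSF libraries serve both. The rise in PMBSF lost its call without Ctrl ALBSF library 2 or 4 (adjusted p = 0.0756 and 0.0738), without Ctrl PMBSF library 1 or 3 (0.0523 and 0.0543), or without pair 1 (0.0726). The related ligand gene Lrrc4, whose product binds netrin-G2, was at a mean of 6.78 to 7.17 CPM in the 3 groups, with adjusted p-values of 0.893 to 0.985.

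Cbln4 (ENSMUSG00000067578, chr2:171878142-171885460) encodes a secreted cerebellin that binds Dcc. It stood at 12, 7.63, 6.78 and 7.74 CPM in Ctrl ALBSF libraries 1 to 4, at 27.4, 15.4, 18.7 and 16.7 CPM in Ctrl PMBSF, and at 8.76, 14.2, 9.04 and 14 CPM in embWPC ALBSF. Every PMBSF library was above all ALBSF libraries of both groups. In PMBSF against ALBSF controls it rose by 1.20 ± 0.225 (SE, log2; adjusted p = 0.0136), and the call was lost without Ctrl ALBSF library 2, 3 or 4 (adjusted p = 0.0572, 0.0641 and 0.0538). In embWPC ALBSF against Ctrl PMBSF the difference was -0.76, with an adjusted p of 0.339. Draxin, another secreted Dcc ligand, was at a mean of 3.88 CPM in Ctrl ALBSF, 4.10 CPM in Ctrl PMBSF and 2.88 CPM in embWPC ALBSF. Its largest difference was -0.51 in embWPC ALBSF against Ctrl PMBSF (adjusted p = 0.363).

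**Figure D5:**
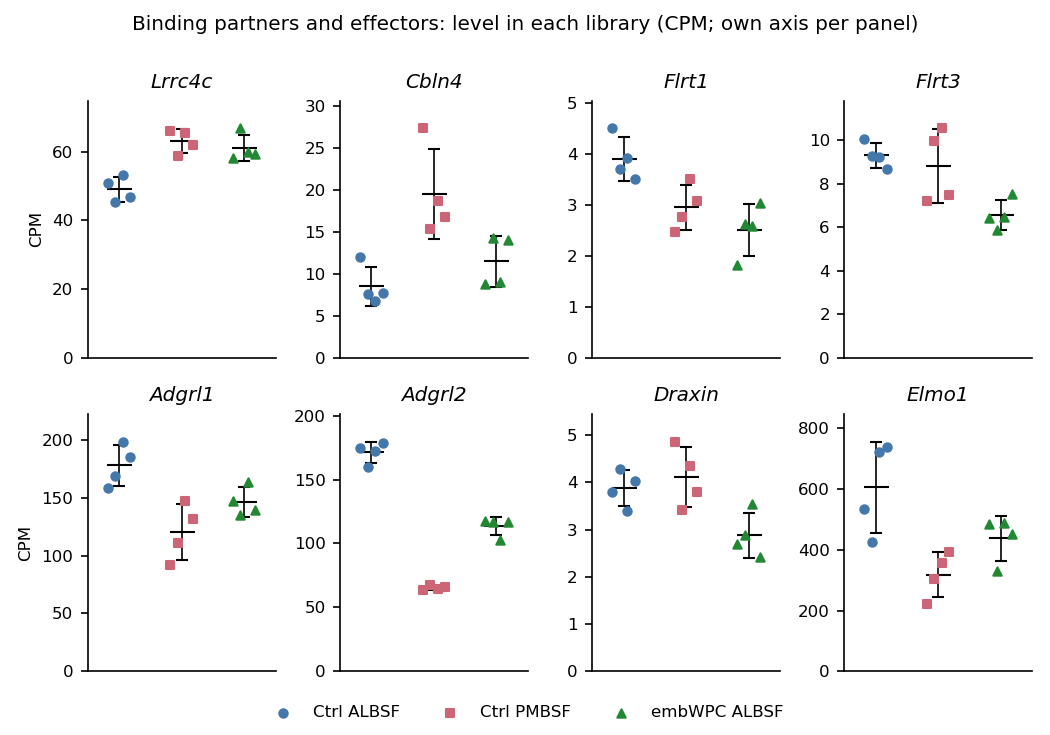
CPM of 7 binding partners and the effector gene Elmo1 in each library by group; points are libraries, the horizontal line is the mean and the bar the SD over 4 libraries, and each panel has its own axis from 0. Lrrc4c and Cbln4 are higher in Ctrl PMBSF than in Ctrl ALBSF without overlap, and Adgrl2 separates all 3 groups, from 63.7 to 67.4 CPM in Ctrl PMBSF to 160 to 179 CPM in Ctrl ALBSF.

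Adgrl1 and Adgrl2 encode latrophilins, adhesion receptors that bind Flrt proteins, which in turn bind Unc5 receptors. Adgrl2 (ENSMUSG00000028184, chr3:148518957-148696229) stood at 160 to 179 CPM in Ctrl ALBSF, 63.7 to 67.4 CPM in Ctrl PMBSF and 103 to 118 CPM in embWPC ALBSF, with no overlap between any 2 groups. It fell by 1.39 ± 0.0668 (SE, log2) in PMBSF against ALBSF controls (adjusted p = 6.1e-08) and by 0.60 ± 0.0657 in embWPC ALBSF against Ctrl ALBSF (adjusted p = 0.00425). Against Ctrl PMBSF it was higher in embWPC ALBSF by 0.80 ± 0.0661 (adjusted p = 0.000107). It was the only one of the 60 pathway genes called in either comparison with embWPC ALBSF. Adgrl1 fell by 0.57 ± 0.126 in PMBSF against ALBSF controls (adjusted p = 0.0363), where its group means were 177.8 CPM in ALBSF and 120.1 CPM in PMBSF. That call was lost without Ctrl ALBSF library 2, 3 or 4 (adjusted p = 0.0768, 0.142 and 0.104) or Ctrl PMBSF library 1 or 2 (0.0622 and 0.11), and when only the 8 control libraries were fitted (0.0631).

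The Flrt genes themselves were not called without the block. Between the control territories Flrt2 was at -0.40 (adjusted p = 0.32), from 14.5 CPM in ALBSF to 11 CPM in PMBSF, and with the control pairs as a block it was called at -0.41 ± 0.0878 (SE, log2; adjusted p = 0.0218). In embWPC ALBSF against Ctrl ALBSF, the difference was -0.63 ± 0.178 for Flrt1 (SE, log2; adjusted p = 0.245), from 3.90 to 2.51 CPM, and -0.50 ± 0.134 for Flrt3 (adjusted p = 0.201), from 9.31 to 6.57 CPM. For Flrt2, named after its values were seen, it was -0.55 ± 0.162 (adjusted p = 0.262), from 14.5 to 9.84 CPM. Among the effectors, Elmo1, which encodes a partner of the Rac activator Dock1 downstream of Dcc, stood at 427 to 740.0 CPM in Ctrl ALBSF, 222 to 392 CPM in Ctrl PMBSF and 330.0 to 487 CPM in embWPC ALBSF. It fell by 0.93 ± 0.197 in PMBSF against ALBSF controls (adjusted p = 0.029). The call was lost without Ctrl ALBSF library 3 or 4 (adjusted p = 0.115 and 0.0966), without Ctrl PMBSF library 1, 2 or 3 (0.0673, 0.0862 and 0.0506), or without pair 1 (0.0726). The other 37 effectors were not called in any of the 3 comparisons without the block. With the control pairs as a block, 2 more were called lower in PMBSF, both named after their values were seen: Trim67, which encodes a ubiquitin ligase that binds Dcc, at -0.36 (adjusted p = 0.0122), and Ablim3, an actin-binding LIM protein gene, at -0.30 (adjusted p = 0.00967). Without it their adjusted p-values were 0.26 and 0.263. Ctrl PMBSF libraries were also lower than Ctrl ALBSF libraries without overlap in the summed level of 10 oligodendrocyte lineage markers (361 to 389 against 401 to 524 CPM). Of these markers 1 of 10 was called lower, and 5 of 10 with the control pairs as a block (Pdgfra, Olig2, Sox10, Cspg4 and Gpr17, adjusted p = 0.00423 to 0.0161). All 10 microglia markers were below 0 on the log2 scale in PMBSF against ALBSF controls (median -0.257), with 0 called, where 8584 of 17501 genes were below 0. Of 10 astrocyte and radial glia markers, 7 were below 0 and 3 above, with 0 called. With the control pairs as a block in edgeR, 1 of these was called lower, Sox9 at -0.31 (adjusted p = 0.027). The part of these markers in the Elmo1, latrophilin, Flrt2, Trim67 and Ablim3 values was not tested. Nor was it tested for the members Neo1, Ntn1 and Unc5b.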

How the data were processed

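Poly-A RNA of microdissected thalamus was counted in 12 libraries, 4 per group. The deposited values are raw counts per Ensembl gene, which the authors made with STAR 2.7.9a on GRCm39, SAMtools 1.15 and featureCounts of Subread 2.0.1 with Ensembl release 104, per the series design. The submitters' processing notes also list mm10. Settings for strand, multiple alignments and read pairs are not given in the sources used here. Symbols, positions and exon lengths came from GENCODE mouse annotation on GRCm39, which held 54749 of the 55359 genes. Counts were fitted in R 4.3.3 with edgeR 4.0.16 (quasi-likelihood, group as the only term, all 12 libraries, TMM, filterByExpr by group, 17501 genes), tested on simulated data. Intervals are at 95% from the same fit. CPM were computed from library totals over the genes tested, multiplied by the TMM factors (0.908 to 1.13). DESeq2 1.42.0, limma 3.58.1 voom, RLE scaling, no filter, only the 8 libraries compared, the replicate block and leaving out each library were the alternatives. Same-numbered control libraries deviated together (r of 0.39, 0.198, 0.325 and 0.396 between deviations from the group means), so the numbers, which come from the labels, were taken to pair them. For embWPC ALBSF the correlations ran from -0.15 to 0.051 and no pairing was taken. The labels do not say whether libraries of a group came from separate litters, so p-values measure the spread between these pools. All members were named, with the pathway genes called in any comparison, the 4 with the smallest p in each, and for the 3 members with the smallest p the 3 genes of most similar pattern. For Neo1, 1 of these genes is not reported here. The members and lists were chosen with earlier results of these data known.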

Additional observations from a re-analysis of the deposited data

Results flagged for a closer look

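In 6 of 51 groups of 4 libraries examined for the named genes, 27 of them groups of the members, 1 library stood apart from the other 3 by a larger share of the group's range than the 95% critical value of Dixon's test. Chance alone gives about 1 such group in 20. Unc5b had 2 of them. Ctrl ALBSF library 1 was low at 2.22 CPM, with the others at 4.53 to 4.92 CPM, and embWPC ALBSF library 2 was low at 2.07 CPM, with the others at 3.86 to 4.10 CPM. Unc5c also had 2, with Ctrl ALBSF library 3 high at 26.1 CPM against 21.4 to 22.1 CPM and Ctrl PMBSF library 1 low at 23.4 CPM against 26.1 to 26.5 CPM. For Unc5a, embWPC ALBSF library 4 was high at 18.8 CPM, with the others at 14.9 to 15.4 CPM. For the latrophilin gene Adgrl2, embWPC ALBSF library 3 was low at 103 CPM, with the others at 117 to 118 CPM. No cause of these values was tested.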

How the results depend on the processing

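The member tests kept their direction and their side of the threshold in 394 of 414 refits, reversed in 19 and gained a call in 1. That call, of Unc5b between the control territories, made 1 member called under the replicate block without both control libraries numbered 1 (979 of all genes). Between the control territories, where 284 of all genes and 5 pathway genes were called, the replicate block gave 857 and 8, DESeq2 527 and voom 443 genes. Leaving out both libraries numbered 1 gave 3 pathway genes (9 with the block), and leaving out single libraries gave 127 to 249 genes and 1 to 5 pathway genes. For embWPC ALBSF against Ctrl ALBSF, 11 genes and 1 pathway gene were called. DESeq2 gave 181 and 2, voom 75, no filter 121, the replicate block 1 and 0, leaving out the libraries numbered 1 gave 50, and single libraries 1 to 22. Against Ctrl PMBSF, 1 gene, Adgrl2, was called. DESeq2 gave 74, no filter 72 genes and 2 pathway genes, the replicate block 0 and 0 (adjusted p of Adgrl2 0.117, and 0.104 against Ctrl ALBSF), leaving out the libraries numbered 1 gave 2, and single libraries 1 to 3. With that block the Adgrl2 differences were 0.80 and -0.58, against 0.80 and -0.60 without it, and the embWPC numbers mark no pairing. The block alone changed no call of a member.

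Reversals were of differences near 0. For Ntn4 they were 0.069 with voom, 0.0061 with only the 8 libraries, 0.019 with the replicate block and 0.12 without the libraries numbered 1 in embWPC ALBSF against Ctrl ALBSF, where single libraries gave -0.08 to 0.12. They gave -0.012 to 0.19 for Ntn4 between the control territories and -0.12 to 0.013 against Ctrl PMBSF, -0.099 to 0.018 for Ntng1 against Ctrl ALBSF, and -0.24 to 0.035 for Dcc against Ctrl PMBSF. For Unc5a against Ctrl PMBSF voom gave -0.014, leaving out the libraries numbered 1 gave -0.00195, and single libraries -0.057 to 0.061. Between the control territories, Flrt3 reversed to 0.037 without the libraries numbered 1 and 0.027 with the block added, and Draxin to -0.028 and -0.027, with -0.018 to 0.16 for single libraries. The cause was not tested.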
